A study of Mus musculus with 8 samples.

Results

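Proteasome subunits, their assembly chaperones, caps and regulators were examined in whole-heart RNA of newborn and 1-week-old mice. Members were all gene symbols that begin with Psma, Psmb, Psmc, Psmd, Psme, Psmf or Psmg followed by a digit, without the immunoproteasome genes Psmb8 and Psmb9, the unrelated Psmc3ip and annotated pseudogenes. This gave 46 genes of 39614 loci with a gene symbol and 80155 loci in all, and each of the 46 members had 1 locus. RNA-seq was made from 4 hearts of postnatal day 1 (P1) and 4 hearts of postnatal day 7 (P7), each from its own male Hsd:ICR(CD-1) mouse, an outbred stock, with no treatment and no genetic change stated, and with the atrial appendages taken off before freezing. The deposited values were FPKM, in which fragments are divided by transcript length and library size, so levels of different genes can be compared per length. These files give no fragment counts behind the values. The heart label held in the cardiomyocyte genes, with Myh6 (cardiac myosin heavy chain) at 3645 ± 1290 FPKM in P1 and 4407 ± 856 FPKM in P7 (SD, n = 4 each). Loci without a gene symbol held 33.05% of the summed FPKM in P7 replicate 3 and 72.65% in P7 replicate 4, against 41.5% to 59.9% in the other hearts. P1 replicate 3 stood apart from the rest in the number of loci. It had 28662 loci at 1 FPKM or more, against 21382 to 22292 in the other P1 hearts.

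The proteasome is the protease that degrades most short-lived and damaged proteins tagged with ubiquitin. Its 20S core is a barrel of outer alpha rings and inner beta rings, each ring with 7 subunits, and 3 of the beta subunits cut proteins. The 19S regulatory particle sits on the ends of the barrel, binds ubiquitin, removes it and uses ATPases to unfold the protein and feed it into the core. Other caps, such as PA28 and PA200, open the barrel without ubiquitin or ATP. In heart muscle this system turns over sarcomere proteins, and its subunit genes are induced together by the transcription factor NFE2L1 when proteasome activity is short.

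The levels differed by role, with overlap between the roles. The 14 subunits of the 20S core had the highest median, 126 FPKM over the members' means of all 8 hearts, against 37.6 FPKM for the 17 subunits of the 19S particle. In the alpha ring, which gates the barrel, Psma3 was the highest of all members at 273.9 FPKM and Psma1 the lowest of its ring at 54.6 FPKM. In the beta ring, which holds the active sites, the range ran from Psmb5 at 36.1 FPKM to Psmb7 at 223.7 FPKM. The 6 ATPases of the 19S particle, which unfold substrates, ran from Psmc2 at 21.04 FPKM to Psmc6 at 82.6 FPKM. Its 11 non-ATPase subunits ran from Psmd7 at 16.9 FPKM to Psmd6 at 96.2 FPKM. The locus of Psmd6 overlaps Thoc7, a locus of its own with a mean of 103.9 FPKM in P1 and 98.0 FPKM in P7.

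The assembly chaperones and caps spanned a wide range. The 3 chaperones that assemble the base of the 19S particle had 4.76 FPKM (Psmd9) to 11.9 FPKM (Psmd10). The 4 chaperones that assemble the 20S core had 2.73 FPKM (Psmg3) to 78.2 FPKM (Psmg4). Among the caps and regulators, Psme1 (the alpha chain of PA28) was the highest at 91.5 FPKM and Psmf1 (the inhibitor PI31) the lowest at 5.84 FPKM. Of the 3 core subunits restricted to certain tissues, Psmb10 (the inducible immunoproteasome subunit that takes the place of Psmb7) had 14.0 FPKM. Psmb11, the thymus form, had 0.101 FPKM and did not reach 1 FPKM in any heart, so 45 of the 46 members were tested. Psma8, the testis form, was tested because P7 replicate 1 alone had 1.21 FPKM. It is named here after its values were seen.

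**Figure D1:**
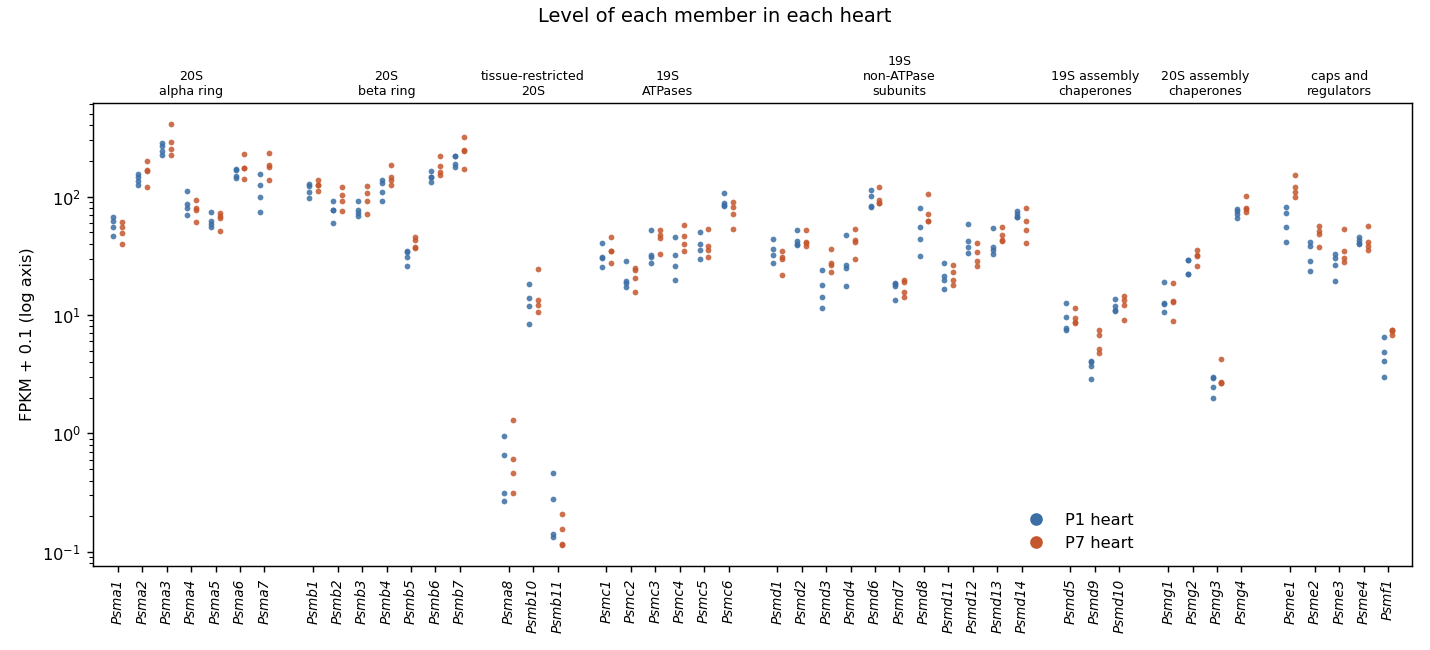
Level of each of the 46 members in each heart, in FPKM + 0.1 on a log axis, with P1 hearts in blue, P7 hearts in orange and genes grouped by role. The highest points are those of 20S core subunits, Psma8 and Psmb11 lie at the bottom, and the blue and orange points of most members overlap.

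Psme1 alone of the members passed the test between the stages. With limma on log2(FPKM + 1) over all 43172 loci at 1 FPKM or more in at least 1 heart, a locus was called when its p, adjusted by Benjamini-Hochberg, was under 0.05 and its mean FPKM differed at least 1.5-fold. Of the 45 tested members, 1 was called higher in P7 (Psme1) and 0 lower, beside 7.74% of the 17960 tested annotated loci called higher and 0.401% called lower. At an unadjusted p under 0.05 there were 7 members (15.6%), beside 29.7% of the annotated loci. In 4 members, Psmb5, Psmd9, Psmf1 and Psme1, all P7 hearts were above all P1 hearts, or 8.89% of the tested members, beside 17.3% of the annotated loci. In 0 members was every P7 heart below every P1 heart, beside 2.69% of the annotated loci. The median log2 fold change was 0.17 over the members and 0.19 over the annotated loci, and 37 of the 45 members had a positive value, which is 82.2% beside 67.6% of annotated loci.

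A shift shared by most genes of a heart moved these counts. When the hearts were scaled so that the median annotated locus had the same level in each (median-ratio scaling), the median log2 fold change fell to 0.01 over the annotated loci and to -0.05 over the members. Then 21 members had a positive and 24 a negative value, all P7 hearts were above all P1 hearts in 5 members (11.1%, beside 15.5% of the annotated loci) and below in 10 (22.2%, beside 12.9%). All of these 10 were core subunits, 3 of the alpha ring and 7 of the 19S particle. Psme1 was again called higher, beside 8.06% of the annotated loci, and Psmd12 was called lower, beside 3.67%. Directions of members given below are therefore relative to the scale named with them.

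**Figure D2:**
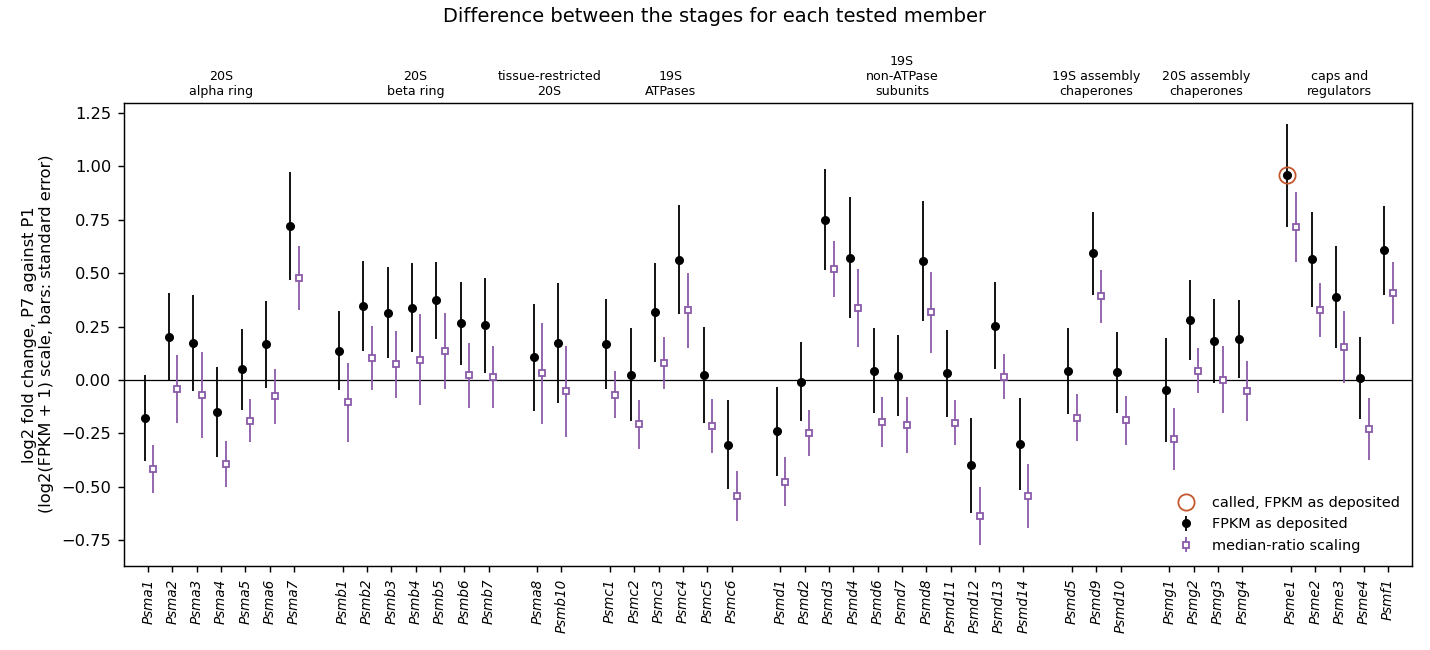
Log2 fold change of P7 against P1 for the 45 tested members on the log2(FPKM + 1) scale, with bars for the standard error, as deposited (black circles) and after median-ratio scaling (open squares), by role. The 1 ringed member is Psme1, and the squares lie below the circles.

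The caps held the member with the clearest difference. PA28 alpha and beta, from Psme1 and Psme2, form a mixed ring on the core that is known for making peptides for antigen presentation and for the response to oxidised proteins. Psme1 (chromosome 14, 55578123 to 55585302, GRCm38, plus strand) had 72.9, 54.9, 41.2 and 82.2 FPKM in the P1 hearts and 98.6, 110.2, 152.2 and 120.1 FPKM in the P7 hearts. Every P7 heart was above the highest P1 heart. The means were 62.8 ± 18.4 in P1 and 120.3 ± 23.0 in P7 (SD, n = 4), and the log2 fold change was 0.96 (SE 0.24, limma adjusted p = 0.0473). The gene Emc9 lies in the same span on the other strand as a locus of its own, and its mean was 22.2 FPKM in P1 and 37.0 FPKM in P7. Whether strand was used in the counting was not stated, so reads of the pair may not be told apart where they overlap.

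The call of Psme1 was close to the threshold. It was lost with the GC correction described below (log2 fold change 0.63, adjusted p = 0.193), without the filter on low values (adjusted p = 0.143), and when any 1 heart was left out except P1 replicate 4. Without P1 replicate 4 its adjusted p was 0.0180 and 5 members were called higher, beside 15.4% of the annotated loci. Without P1 replicate 3, the heart that stood apart in the number of loci, its log2 fold change was 0.77 (adjusted p = 0.107). Then 0 members were called, beside 2.22% of the annotated loci called higher.

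The partner Psme2 had 38.2, 28.7, 23.3 and 41.2 FPKM in P1 and 48.5, 37.1, 56.7 and 51.3 FPKM in P7. Only P7 replicate 2 fell within the P1 range. The log2 fold change was 0.57 (SE 0.22, limma adjusted p = 0.199), so Psme2 was not called. Psme3, the nuclear PA28 gamma that forms a ring of its own, had 30.3, 26.5, 19.2 and 32.6 FPKM in P1 and 27.8, 30.4, 52.7 and 34.3 FPKM in P7. P7 replicates 1 and 2 lay within the P1 range, and the log2 fold change was 0.39 (SE 0.24, limma adjusted p = 0.390).

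Psme4 encodes PA200, a nuclear cap of a single large chain. Its values were 39.4, 42.8, 40.2 and 45.1 FPKM in P1 and 56.0, 35.5, 41.4 and 38.1 FPKM in P7. P7 replicate 1 was the highest of all hearts and P7 replicates 2 and 4 the lowest, so the groups overlapped. The log2 fold change was 0.01 with a 95% interval of -0.40 to 0.42. Psmf1, the inhibitor, had 4.79, 3.97, 2.91 and 6.36 FPKM in P1 and 7.24, 7.43, 7.35 and 6.66 FPKM in P7. All P7 hearts were above all P1 hearts, and the log2 fold change of 0.61 (SE 0.21, limma adjusted p = 0.140) did not pass.

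Ratios of pairs of members within a heart do not change when the heart is rescaled. The Psme3 to Psme1 ratio was 0.440 ± 0.041 in P1 and 0.297 ± 0.033 in P7 (SD, n = 4), and all 4 P7 hearts lay below every P1 heart. The log2 difference was -0.57, with an exact permutation p = 0.0286, the smallest that 4 against 4 hearts allow, and 0.0857 after adjustment over the 3 ratios, so it did not pass. The Psme4 to Psme1 ratio was 0.711 ± 0.209 in P1 and 0.370 ± 0.134 in P7, with 3 of 4 P7 hearts below every P1 heart and an exact permutation p = 0.0857 (0.129 adjusted). The Psmb10 to Psmb7 ratio, the share of an inducible against a standard catalytic subunit, was 0.0637 ± 0.0148 in P1 and 0.0613 ± 0.0180 in P7 (exact permutation p = 0.8), a difference below the spread between hearts. After GC correction its log2 difference was -0.72 (exact permutation p = 0.0286) and that of Psme3 to Psme1 was -0.20 (p = 0.114, exact permutation). All 3 tests were two-sided.

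The catalytic subunits had positive log2 fold changes that did not pass the test. Psmb5, which cuts after hydrophobic residues, had 34.7, 30.8, 33.9 and 25.99 FPKM in P1 and 42.8, 37.7, 45.9 and 36.8 FPKM in P7. All P7 hearts were above all P1 hearts, with a log2 fold change of 0.37 (95% interval -0.02 to 0.76, limma adjusted p = 0.290). Psmb6, which cuts after acidic residues, had 163.8, 133.2, 146.0 and 147.4 FPKM in P1 and 159.8, 151.6, 222.0 and 182.8 FPKM in P7. The groups overlapped through P1 replicate 1, and the log2 fold change was 0.26 (95% interval -0.16 to 0.69).

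Psmb7, which cuts after basic residues, had 220.1, 189.9, 176.6 and 220.0 FPKM in P1 and 244.4, 172.0, 319.6 and 246.7 FPKM in P7. P7 replicate 2 was the lowest of all 8 hearts while the other P7 hearts were the highest, and the log2 fold change was 0.26 (95% interval -0.22 to 0.74). Its inducible counterpart Psmb10 had 13.9, 11.7, 8.28 and 18.3 FPKM in P1 and 10.5, 13.3, 24.4 and 11.98 FPKM in P7. Only P7 replicate 3 was outside the P1 range, and the log2 fold change was 0.17 (95% interval -0.43 to 0.78). The locus that holds Lcat and Slc12a4 overlaps Psmb10 and had a mean of 12.5 FPKM in P1 and 23.4 FPKM in P7. The 7 beta subunits all had positive values, from 0.14 to 0.37, and after median-ratio scaling 6 had positive and 1 a negative value, between -0.11 and 0.13.

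The promoters of 2 of these catalytic genes and of Psme1 are shown as examples in which letters of known regulators occur. RefSeq windows of GRCm38.p6, 250 bases before to 50 after the start, were found for 38 of the 46 members (41 windows). The core of the antioxidant response element, TGACNNNGC on either strand, to which NFE2L1 and NFE2L2 bind, was in 6 of the 41 windows (14.6%), beside 12.4% of all 32851 windows. The core of the interferon-stimulated response element, GAAA, 2 bases of any kind and GAAA on either strand, was in 5 of the 41 windows (12.2%), beside 3.44% of all windows. Besides the genes shown, the antioxidant core was in Psmc6, Psmd9, Psmd12 and Psme4, and the interferon core in Psmb3, Psmd4, Psmd9 and Psmg4. The windows of Psme2 and Psmb10 held neither. The 2 motifs did not overlap in any member. Such a match is only a description of the letters. In capitals are the antioxidant element cores of Psmb5 (chr14:54617946-54618245, minus strand) and Psmb6 (chr11:70525107-70525406, plus strand), which begin 47 and 9 bases before the start, and the interferon element core of Psme1 (chr14:55578244-55578543, plus strand), which lies after the start and is read from the other strand.
Psmb5: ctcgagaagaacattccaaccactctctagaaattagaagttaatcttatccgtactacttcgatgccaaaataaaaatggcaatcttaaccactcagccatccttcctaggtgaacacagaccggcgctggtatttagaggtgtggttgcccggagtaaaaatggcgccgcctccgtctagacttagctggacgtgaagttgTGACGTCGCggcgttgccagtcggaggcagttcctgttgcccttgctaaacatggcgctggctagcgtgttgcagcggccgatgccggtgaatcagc
Psmb6: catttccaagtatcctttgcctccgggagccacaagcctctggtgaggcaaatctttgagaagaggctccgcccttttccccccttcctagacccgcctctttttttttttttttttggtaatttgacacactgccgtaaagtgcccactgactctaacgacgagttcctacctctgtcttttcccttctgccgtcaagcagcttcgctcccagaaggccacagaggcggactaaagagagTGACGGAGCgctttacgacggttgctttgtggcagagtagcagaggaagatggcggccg
Psme1: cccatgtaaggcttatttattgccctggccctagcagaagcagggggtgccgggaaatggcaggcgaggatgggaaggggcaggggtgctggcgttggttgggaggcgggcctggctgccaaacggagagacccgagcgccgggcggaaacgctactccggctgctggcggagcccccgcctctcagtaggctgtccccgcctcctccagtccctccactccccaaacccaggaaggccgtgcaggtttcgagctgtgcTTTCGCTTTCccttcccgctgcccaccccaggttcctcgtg

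In the alpha ring, Psma7 stood at the upper end. It had 125.7, 99.2, 73.7 and 155.1 FPKM in P1 and 184.2, 138.4, 232.8 and 179.2 FPKM in P7. P7 replicate 2 lay below P1 replicate 4, and the other P7 hearts were above all P1 hearts. The log2 fold change was 0.72 (SE 0.25, limma adjusted p = 0.152), and the member did not pass. Psma1 stood at the lower end, with 61.9, 46.7, 55.5 and 67.6 FPKM in P1 and 55.5, 39.6, 60.7 and 49.3 FPKM in P7. The groups overlapped as deposited, with a log2 fold change of -0.18 (95% interval -0.61 to 0.26). Psma3, the most abundant member, had 225.1 to 284.0 FPKM in P1 and 223.9 to 411.9 FPKM in P7 and a log2 fold change of 0.17 (95% interval -0.32 to 0.66).

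The 19S particle held both ends of the range of core subunits. Psmd3, a scaffold subunit of the lid, had 17.8, 14.1, 11.3 and 23.8 FPKM in P1 and 27.6, 23.1, 35.8 and 26.3 FPKM in P7. P7 replicate 2 lay just below P1 replicate 4, so the groups met. The log2 fold change was 0.75 (SE 0.24, limma adjusted p = 0.107). Psmd12, another scaffold of the same lid, had 37.8, 42.4, 33.0 and 58.2 FPKM in P1 and 28.2, 25.6, 40.6 and 33.7 FPKM in P7, with a log2 fold change of -0.40 (SE 0.22, limma adjusted p = 0.352). P7 replicates 1 and 2 were below all P1 hearts, and the other P7 hearts lay within the P1 range. After median-ratio scaling Psmd12 was called lower, with a log2 fold change of -0.64 (SE 0.13, limma adjusted p = 0.0242, ratio 0.637), while Psmd3 had 0.52 (limma adjusted p = 0.0440) and a ratio of 1.45, under the ratio asked for.

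Psmc6, an ATPase, had 87.8, 84.9, 83.1 and 107.3 FPKM in P1 and 82.3, 53.3, 90.5 and 71.8 FPKM in P7. P7 replicate 3 was above 3 of the P1 hearts and the other P7 hearts below all of them, and the log2 fold change was -0.30 (95% interval -0.75 to 0.15). Psmd14, the deubiquitinase that cuts the ubiquitin chain off the substrate, had 71.4, 67.4, 67.2 and 75.4 FPKM in P1 and 52.6, 40.7, 79.3 and 61.5 FPKM in P7. P7 replicate 3 was the highest of all hearts and the other P7 hearts the lowest, and the log2 fold change was -0.30 (95% interval -0.76 to 0.16). Psmd1, the largest scaffold of the base, had 31.7, 35.7, 27.4 and 44.0 FPKM in P1 and 31.0, 21.9, 34.3 and 29.5 FPKM in P7, in a locus that also holds Armc9. Its groups overlapped as deposited, and the log2 fold change was -0.24 (95% interval -0.69 to 0.21). After median-ratio scaling Psmc6 had -0.54 (limma adjusted p = 0.0252, ratio 0.685) and Psmd1 -0.48 (limma adjusted p = 0.0375, ratio 0.710). Psmd14 then had -0.54 (limma adjusted p = 0.0618). In each of these genes every P7 heart was then below every P1 heart, beside 12.9% of the annotated loci, and none was called. Psmd4, the ubiquitin receptor, had 26.3, 24.8, 17.5 and 47.2 FPKM in P1 and 41.0, 29.5, 53.6 and 42.8 FPKM in P7. P1 replicate 4 exceeded 3 of the P7 hearts, and the log2 fold change was 0.57 (95% interval -0.04 to 1.18), or 0.34 after median-ratio scaling.

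**Figure D3:**
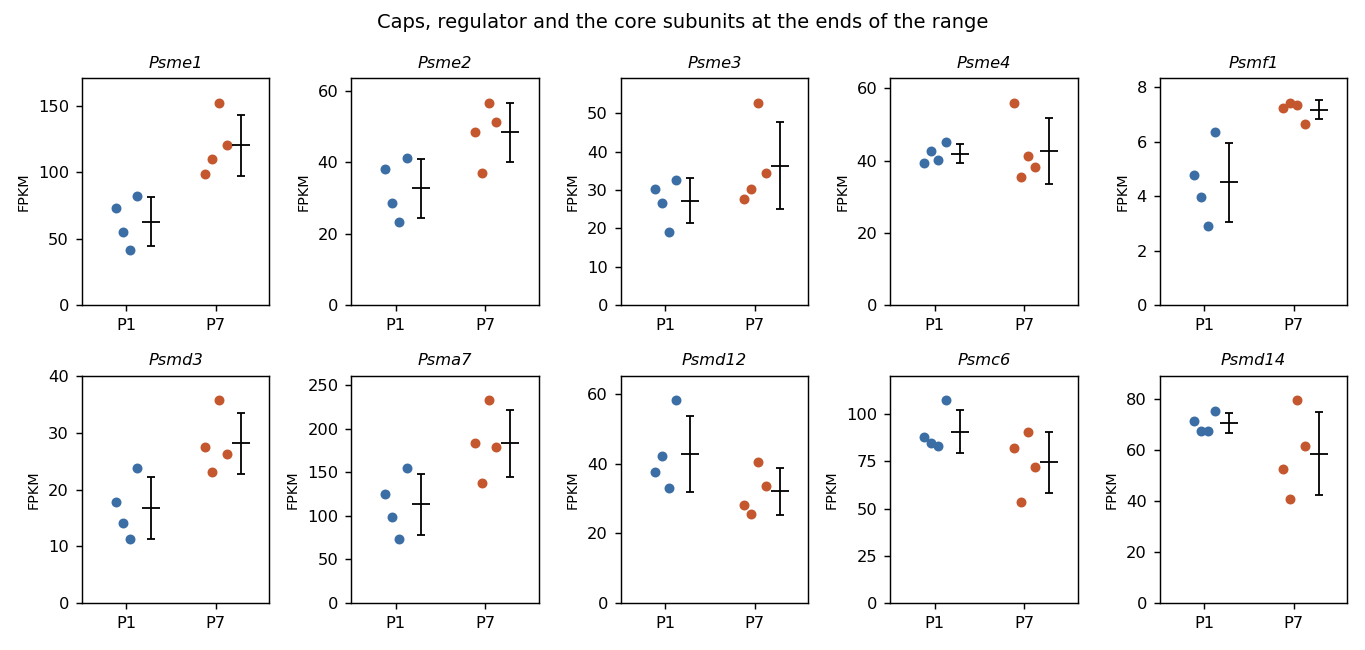
FPKM of the caps, the inhibitor and 5 core subunits in each heart (points: P1 blue, P7 orange), with the mean and SD (n = 4) in black. All P7 hearts lie above all P1 hearts for Psme1 and Psmf1, and the points of the other genes overlap.

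Among the other 19S subunits, Psmc2 had a mean of 20.9 ± 5.17 FPKM in P1 and 21.2 ± 4.20 FPKM in P7, Psmd7 16.8 ± 2.31 and 17.1 ± 2.73 FPKM, and Psmd6 94.7 ± 15.3 and 97.7 ± 16.03 FPKM (SD, n = 4). These differences were smaller than the spread between hearts. As deposited, 0 of the 31 core subunits were called, beside 7.74% of the annotated loci called higher and 0.401% called lower. Positive values stood in 24 and negative ones in 7, beside 67.6% of annotated loci with a positive value. After median-ratio scaling 13 were positive and 18 negative, beside 50.9% positive, and Psmd12 was called lower (beside 3.67%). As deposited, 26 of the 31 had a 95% interval that lay within a 2-fold change in either direction. In 8 of them the interval lay within a 1.5-fold change. For the rest of the core the interval reached past 1.5-fold. It also held 0, except in 3 subunits with an unadjusted limma p under 0.05, none of them called. Elsewhere in that rest, a change of 1.5-fold was not told from none with 4 hearts a stage.

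The core subunits were ranked across the hearts. P7 replicate 3 had the highest value of all 8 hearts in 22 of the 31 core subunits and the highest of the P7 hearts in all 31, and P1 replicate 4 had the highest value in the remaining 9. P7 replicate 2 had the lowest value in 13, P1 replicate 3 in 12, and P1 replicates 2 and 4 in 3 each. The median level of the core subunits relative to their mean over the hearts ran from 0.824 in P7 replicate 2 to 1.32 in P7 replicate 3. The factors of the same hearts over all annotated loci ran from 0.790 in P1 replicate 3 to 1.25 in P7 replicate 3. Divided by that factor, the core stood at 1.02 to 1.07 in P1 and 0.887 to 1.05 in P7, and P7 replicate 3 lay inside the P1 range while the other 3 P7 hearts lay below every P1 heart.

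Of the 7 assembly chaperones, 0 were called. Psmd9, a chaperone of the ATPase ring, had 3.91, 3.59, 2.81 and 3.99 FPKM in P1 and 6.69, 5.07, 7.32 and 4.69 FPKM in P7. All P7 hearts were above all P1 hearts, with a log2 fold change of 0.59 (SE 0.19, limma adjusted p = 0.121), which did not pass. Its locus spans 4 other coding genes, of which Tmem120b had 5.49 FPKM in P1 and 9.01 FPKM in P7 and Rhof 3.08 and 6.75 FPKM. Psmd10 (gankyrin) had 11.7 ± 1.23 and 12.2 ± 2.34 FPKM. Of the chaperones of the 20S core, Psmg3 had 2.49 ± 0.47 and 2.98 ± 0.76 FPKM and Psmg4 had 72.8 ± 5.50 and 83.7 ± 12.4 FPKM (SD, n = 4).

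Members with GC-rich transcripts had the higher log2 fold changes. Over the 45 tested members, the log2 fold change and the GC content of the longest transcript correlated with 0.57 by both Spearman and Pearson, given as a description, since all members share the same 8 libraries. The 5 members with the lowest values had 37.0% to 51.3% GC and the 5 with the highest 48.8% to 57.4%. When a smooth trend of each heart on GC content was taken out (GC correction), the Spearman correlation was -0.10 and 0 members were called. The log2 fold changes were then 0.46 for Psmd3, 0.34 for Psma7 and -0.02 for Psmc6. For the members with all P7 hearts above all P1 hearts as deposited, they were 0.03 for Psmb5, 0.57 for Psmd9, 0.63 for Psme1 and 0.69 for Psmf1. The share of GC content in the differences was not tested.

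**Figure D4:**
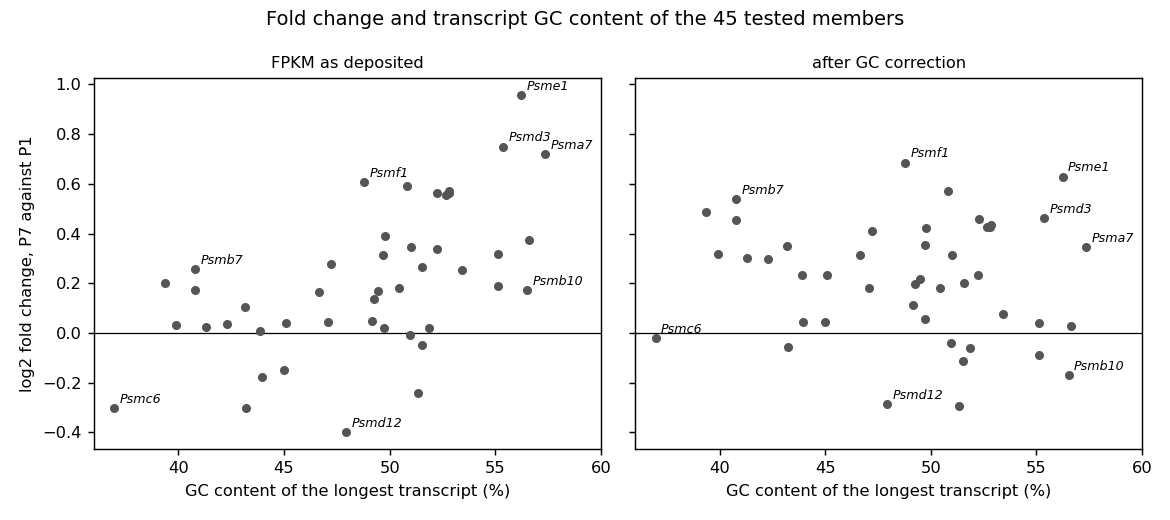
Log2 fold change of P7 against P1 (log2(FPKM + 1) scale) plotted over transcript GC content in percent, for the 45 tested members, as deposited (left) and after GC correction (right). Points rise to the right in the left panel and not in the right panel.

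A second list held 28 genes of ubiquitin supply, shuttling, assembly and regulation, among them proteasome subunits outside the rule (Adrm1, Shfm1, Psmb8 and Psmb9). Of these genes, 5 were called higher in P7 and 0 lower, beside 7.74% and 0.401% of the annotated loci, and the median log2 fold change was 0.41. Ubb, a gene of polyubiquitin chains, was among the 5. Ubb had 91.2, 75.4, 56.3 and 79.0 FPKM in P1 and 150.0, 128.1, 170.4 and 134.4 FPKM in P7, without overlap, and rose by 0.95 on the log2 scale (SE 0.20, limma adjusted p = 0.0270).

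Nfe2l1, the transcription factor of the subunit genes, had 47.7, 39.3, 28.1 and 76.7 FPKM in P1 and 106.3, 79.9, 126.5 and 86.9 FPKM in P7. All P7 hearts were above all P1 hearts, and the log2 fold change was 1.11 (SE 0.28, limma adjusted p = 0.0468). Adrm1, the ubiquitin receptor of the 19S base that is named outside the Psm families, had 23.4, 19.1, 13.1 and 24.8 FPKM in P1 and 31.2, 36.8, 48.0 and 36.9 FPKM in P7, without overlap, and rose by 0.91 on the log2 scale (SE 0.23, limma adjusted p = 0.0445). Pomp, the maturation factor of the 20S core, had 102.8 ± 7.08 FPKM in P1 and 136.4 ± 23.1 FPKM in P7, with all P7 hearts above all P1 hearts and a limma adjusted p = 0.290. Psmb8, an inducible catalytic subunit, had 1.33, 0.782, 1.57 and 2.35 FPKM in P1 and 3.87, 3.88, 3.87 and 3.10 FPKM in P7 and rose by 0.93 on the log2 scale (SE 0.21, limma adjusted p = 0.0330). Its level in P7 was below that of Psmb10, and its locus overlaps Tap2. Psmb9, a further inducible subunit named here after its values were seen and whose locus overlaps Tap1, had 0.386 to 1.40 FPKM in P1 and 0.605 to 4.12 FPKM in P7, with overlap, and was not called (limma adjusted p = 0.196).

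Of the ubiquitin ligases of muscle, Trim54 (MuRF3) was called, with 1.65, 1.80, 1.20 and 3.83 FPKM in P1 and 9.10, 4.84, 12.2 and 5.83 FPKM in P7 and a log2 fold change of 1.52 (SE 0.30, limma adjusted p = 0.0201). Trim63 (MuRF1) had 37.3 ± 19.1 FPKM in P1 and 53.0 ± 11.6 FPKM in P7 (limma adjusted p = 0.314), and Fbxo32 (atrogin-1) had 6.04 ± 2.04 and 10.7 ± 6.62 FPKM (limma adjusted p = 0.311). Neither passed, and the groups overlapped in both. Of the 4 deubiquitinases and ligases that bind the proteasome, 0 were called, with a median log2 fold change of -0.14 as deposited. With the GC correction, and again without P1 replicate 3, 0 of the 28 genes were called.

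**Figure D5:**
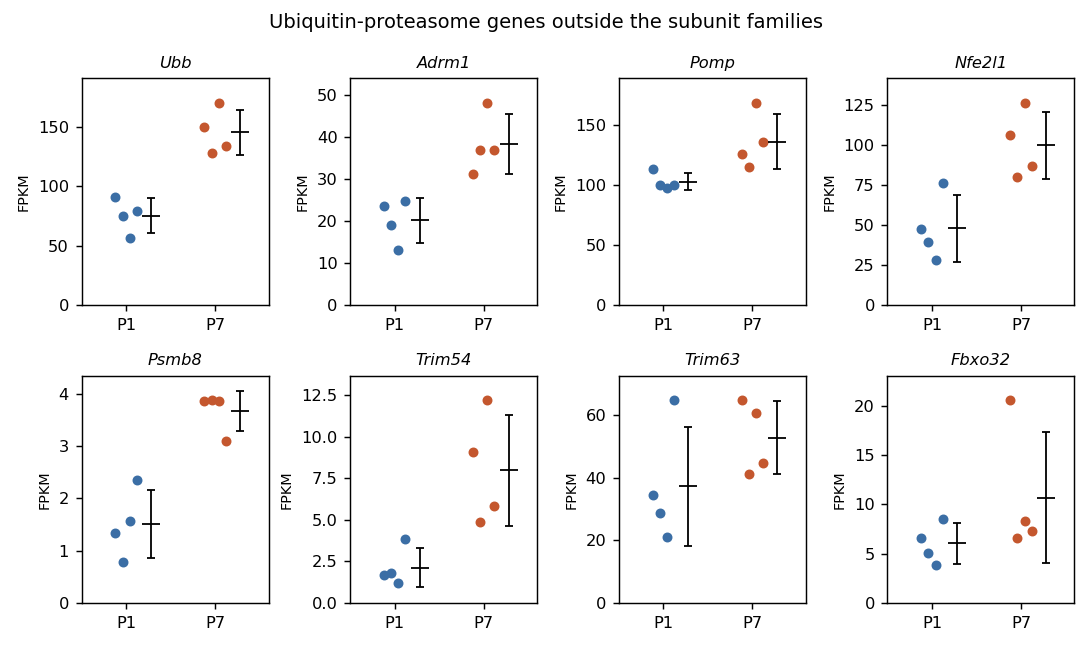
FPKM of 8 ubiquitin-proteasome genes outside the subunit families in each heart (points: P1 blue, P7 orange), with the mean and SD (n = 4) in black. The points do not overlap for Ubb, Adrm1, Pomp, Nfe2l1, Psmb8 and Trim54, and they overlap for Trim63 and Fbxo32.

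Markers of other cells of the heart also differed. Of 4 fibroblast markers 3 were called higher in P7 (Col1a1, Dcn and Tcf21), and their summed level was 302 to 499 FPKM in P1 and 706 to 825 FPKM in P7. Of 4 endothelial markers 2 were called higher (Cdh5 and Tie1), with a sum of 50.8 to 100.3 FPKM in P1 and 94.5 to 146 FPKM in P7. Of 5 leukocyte markers 0 were called, their sum was 3.64 to 5.64 FPKM in P1 and 5.67 to 7.31 FPKM in P7, and Cd3e was listed at 0 in at least 1 heart. Of 3 smooth muscle markers 1 was called lower (Cnn1), and their sum, most of it Acta2, was 225 to 477 FPKM in P1 and 99.4 to 208 FPKM in P7, while Myh11 had 2.03 ± 0.896 FPKM in P1 and 3.13 ± 0.624 FPKM in P7 (SD, n = 4) and was not called. Of 6 cardiomyocyte markers 0 were called. The part of these cells in the values of Psme1, Psmb8 and the other genes called was not tested, and in whole hearts fewer cells of a type and less RNA per cell cannot be told apart.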

How the data were processed

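Each library came from the whole heart of 1 male mouse, 4 at P1 and 4 at P7, and was made from RNA depleted of ribosomal RNA (ScriptSeq v2) and sequenced from both ends. Per the labels and the study's methods, a service provider aligned the reads to GRCm38 with the annotation of Ensembl 70. The aligner, the counting program and the use of strand are not given in the sources used here. The deposited values are FPKM per locus, and the files used here hold no counts, so no interval for counting error is given. Library totals listed by the study were not used. Steps of FPKM at low loci put 1 fragment at 1.24 to 1.64 times its worth in P1 replicate 1. Values at GRCm38 loci count positions from 1.

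Loci under 1 FPKM in all hearts were left out. With a pseudocount of 1, log2 values of all 8 hearts were compared in limma 3.58.1 (R 4.3.3, lmFit and eBayes with trend, no covariates), adjusted by Benjamini-Hochberg over all tested loci, and called where the adjusted p was under 0.05 and mean FPKM differed at least 1.5-fold. The methods of the study ask for the same fold and false discovery rate and name no test. Ratios of 2 genes were compared by an exact permutation test over all 70 assignments. Other steps used scipy 1.17.1, numpy 2.4.6 and pandas 2.3.3 in Python 3.11.15. The scripts were tested on simulated data with the spread of these hearts. Of 200 loci changed by a known fold, 0 were called with the right sign at 1.5-fold, 49 at 2-fold and 189 at 4-fold. False calls numbered 0, 4 and 13. Each locus was drawn on its own, so these data held no shift shared by the genes of a heart. The simulation therefore gives no count of false calls from such a shift.

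The members, gene lists and tests were chosen with earlier results of these data known. Named members were those called, the 5 largest and 5 smallest log2 fold changes, catalytic subunits, Psmd4, Psmd14, caps and Psmf1, the highest and lowest of each role, and members under the filter. Named genes of the 28 others were those called and Nfe2l1, Pomp, Adrm1, Fbxo32 and Trim63. The 28 leave out 1 gene of the list, which is not reported here and enters no count. Alternatives were median-ratio scaling, a smaller pseudocount (0.1), no filter on low values, 1 FPKM asked of every heart, the replicate number as a block, GC correction (lowess, span 0.3, longest transcript of GENCODE M21), the adjusted p alone, and each heart left out. GC correction with median-ratio scaling and scaling to the median of the core subunits were added after seeing the data. In 11 members the locus span holds another coding gene. The 4 annotated Psm pseudogene loci, left out by the rule, had at most 0.417 FPKM. Limma p-values set the difference between the stages against the spread between single animals of each stage, drawn toward the trend over all tested loci. Permutation p-values place the difference among the possible assignments of the hearts.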

Additional observations from a re-analysis of the deposited data

Results flagged for a closer look

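Of 78 groups of 4 hearts, 8 held a heart far from the others by Dixon's test of the gap to the range, and chance alone gives about 1 in 20 groups, or 3.9. Among the members, Psmc2 had 28.5 FPKM in P1 replicate 4 against 17.2 to 19.1 in the other P1 hearts (gap to range 0.831), and Psmg3 had 4.12 FPKM in P7 replicate 3 against 2.57 to 2.64 in the other P7 hearts (0.952). Among the other genes, Fbxo32 had 20.6 FPKM in P7 replicate 1 against 6.58 to 8.28 (0.878), Pomp 113.4 FPKM in P1 replicate 1 against 98.1 to 99.9 (0.881), and Psmb8 3.10 FPKM in P7 replicate 4 against 3.87 to 3.88 (0.990). The Psme3 to Psme1 ratio was 0.346 in P7 replicate 3 against 0.276 to 0.286 in the other P7 hearts (0.853). The Psme4 to Psme1 ratio was 0.568 in P7 replicate 1 against 0.272 to 0.322 (0.830). P1 replicate 3 had 28662 loci at 1 FPKM or more against 21382 to 22292 in the other P1 hearts (0.875).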

How the results depend on the processing

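The count of members called higher, 1, was 0 without a filter (beside 0.485% of annotated loci) and 4 with the filter on every heart (19%). It was 1 with median-ratio scaling alone (8.06%), 0 with the GC correction alone (2.12%) and 0 with both together (3.43%). With core-subunit scaling it was 3 (10.6%), and with 1 heart left out 0 to 5. The 5 came without P1 replicate 4 (15.4%), and every other heart left out gave 0 (0.874% to 5.48%). The count called lower, 0, was 1 with median-ratio scaling and 0 without any 1 heart. Of the 28 other genes, the 5 called higher stayed 5 with median-ratio scaling alone. This count became 0 without a filter, 0 with the GC correction alone and 0 with the GC correction and median-ratio scaling together. With 1 heart left out it was 0 to 7 (7 without P1 replicate 4, and 0 to 3 without each of the others). With median-ratio scaling alone, 1 was called lower. The log2 difference of Psmb10 to Psmb7 was -0.72 with the GC correction and -0.21 to 0.080 with 1 heart left out. That of Psme3 to Psme1 was -0.20 with the GC correction and -0.64 to -0.52 with 1 heart left out, where 3 against 4 hearts cannot go below p = 0.0571 in the exact permutation test. The median of the members stayed between 0.09 and 0.28 with 1 heart left out.

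The replicate numbers did not pair the hearts (correlations of same-numbered hearts -0.03, 0.27, -0.19 and -0.06, with number 2 alone its own best match). With the replicate number as a block, 0 members were called (beside 5.4% of annotated loci called higher), 3 of the 28 other genes were called, and the log2 difference of Psme3 to Psme1, -0.57, had an exact permutation p = 0.125, the smallest that 4 pairs allow.

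Signs of small log2 fold changes turned. With median-ratio scaling Psma3 had -0.071, Psmb10 -0.053, Psmc2 -0.21, Psmd10 -0.19, Psmd6 -0.20, Psmd7 -0.21, Psme4 -0.23 and Psmg4 -0.051. With the GC correction Psma1 had 0.046, Psmb10 -0.17 and Psmg4 -0.087. With both, Psmb10 had -0.40, Psmb5 -0.22, Psmb6 -0.046, Psmd6 -0.060, Psmd7 -0.18, Psmg3 -0.0033 and Psmg4 -0.33. With core-subunit scaling Psmc2 had -0.082, Psmd10 -0.068, Psmd6 -0.068, Psmd7 -0.087 and Psme4 -0.10. With 1 heart left out the ranges were -0.0030 to 0.29 for Psma3, -0.072 to 0.34 for Psmb10, -0.054 to 0.18 for Psmc2, -0.046 to 0.16 for Psmd10, -0.064 to 0.13 for Psmd6, -0.079 to 0.11 for Psmd7 and -0.12 to 0.090 for Psme4. The causes were not tested. Over the named genes and all alternatives, 416 values kept sign and call, 58 lost the call, 11 gained it and 42 turned. The files hold no counts, and the small number of hearts limits the precision.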
